A study of Mus musculus with 35 samples.

Results

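The genes described here are 10 genes of glucose uptake, glycolysis and lactate export: Slc2a1, Slc2a3, Hk1, Hk2, Pfkfb3, Pkm, Ldha, Pdk1, Slc16a3 and Bnip3. They were listed by name and matched by Ensembl identifier among the 54752 genes of each expression table, and all 10 were found. Their levels come from RNA sequencing of 35 libraries, made from mouse embryonic fibroblasts being reprogrammed towards induced pluripotent stem cells. All 10 passed the filter on low counts, which kept genes at 1 CPM (counts scaled to library size) or more in at least 3 libraries.

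The fibroblasts came from E13.5 embryos (mid-gestation) whose fathers carried an Oct4-GFP transgene on a CBA/CaJ × C57BL/6J background. Cells were at passage 2. They were infected with retroviruses for 48 hours and then kept in iCD3 medium, with Rock inhibitor per the growth protocol, for up to 7 days. The full set, called JEGS, was Jdp2 (a repressor of the AP-1 family), Esrrb (an orphan nuclear receptor), Glis1 and Sall4 (both zinc finger factors), and was sampled on days 2, 4 and 6 with 1 library each. In the 4 leave-out arms, 1 factor was missing from the set, and each arm has 8 libraries, 1 for each day from 0 to 7. All 5 groups share the retroviral infection, the medium and the Oct4-GFP background, and no uninfected group is part of these data. A treatment label gives all 4 factors to every sample, against the sample names. The missing factor stood at 70.5 TPM (a level scaled to transcript length and library size) or less in every library of its arm and each factor present stood at 206 TPM or more, so the names were used. Because no arm has 2 libraries of a day, p-values between arms rest on the spread of an arm around the day effects. In tests of change over days within an arm, the days themselves stand in for replicates. Nothing in the labels says whether the days of an arm are separate cultures.

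Depth was 1266379 to 3608456 counts per library, so that 1 count was worth 0.277 to 0.79 CPM. The arms differed in depth and fragment length: the arm without Esrrb had 1377656 to 1651712 counts and the arm without Sall4 1939226 to 3608456, and mean fragment lengths had medians of 202 bases in the first and 208 bases in the second. JEGS had 1266379 to 1682386 counts and a median fragment length of 199 bases. Both differences run with the groups and cannot be told apart from them. All 12 fibroblast markers were detected in every group, and their summed level over the leave-out arms had maxima of 6554 to 12562 TPM, all on day 0, and minima of 1084 to 3281 TPM. The libraries are mixtures of cells, in which fewer cells of a type and less RNA per cell cannot be told apart.

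Glucose enters cells through facilitative transporters, among which GLUT1 (Slc2a1) serves most proliferating cells and GLUT3 (Slc2a3) has a high affinity and is typical of neurons and of the early embryo. Hexokinases trap the sugar as glucose 6-phosphate, PFKFB3 makes the allosteric activator of phosphofructokinase, and pyruvate kinase M (Pkm) makes pyruvate. Lactate dehydrogenase A (Ldha) turns pyruvate to lactate, PDK1 holds pyruvate dehydrogenase off, and MCT4 (Slc16a3) exports lactate. Bnip3 encodes a mitophagy receptor of the mitochondrial outer membrane. Most of these genes are known targets of the hypoxia-inducible factor HIF-1. Pluripotent stem cells are known for high glycolysis, and a rise of glycolytic genes is a described step of reprogramming.

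The promoters of Slc2a1, Ldha, Slc16a3 and Bnip3 are printed because these 4 genes moved together from day 5 in a pair of arms and are known HIF-1 targets, and the HIF core motif was searched in them. Sequences are RefSeq promoters of 300 bases, from 250 before to 50 after a start, on GRCm38.p6, and 14 promoters of 9 of the 10 genes were matched. The table has no entry for Slc2a3. Capitals mark ACGTG or GCGTG on either strand, and a CACGTG holds ACGTG on both strands and counts as 2. The Slc2a1 promoter is chr4:119108495-119108794 (plus strand), Ldha chr7:46845554-46845853 (plus strand), Slc16a3 chr11:120948817-120949116 (plus strand) and Bnip3 chr7:138909457-138909756 (minus strand).
Slc2a1: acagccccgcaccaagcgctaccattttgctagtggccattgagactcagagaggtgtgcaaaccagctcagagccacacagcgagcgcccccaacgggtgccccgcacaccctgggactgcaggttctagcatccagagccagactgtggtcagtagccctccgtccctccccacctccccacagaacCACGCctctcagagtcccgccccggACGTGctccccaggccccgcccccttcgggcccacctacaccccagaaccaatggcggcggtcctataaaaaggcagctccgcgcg
Ldha: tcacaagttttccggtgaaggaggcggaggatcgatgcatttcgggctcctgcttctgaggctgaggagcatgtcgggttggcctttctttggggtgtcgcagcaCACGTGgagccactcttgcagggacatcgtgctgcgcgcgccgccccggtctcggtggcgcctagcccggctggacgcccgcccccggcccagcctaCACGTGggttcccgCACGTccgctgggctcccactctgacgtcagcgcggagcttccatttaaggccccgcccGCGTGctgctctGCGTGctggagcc
Slc16a3: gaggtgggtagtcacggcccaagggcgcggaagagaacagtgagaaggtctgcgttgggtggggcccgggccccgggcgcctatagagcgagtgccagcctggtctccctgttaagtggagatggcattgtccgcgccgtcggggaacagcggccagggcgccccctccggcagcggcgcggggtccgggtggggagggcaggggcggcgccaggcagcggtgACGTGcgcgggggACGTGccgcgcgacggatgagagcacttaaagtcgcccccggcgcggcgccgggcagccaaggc
Bnip3: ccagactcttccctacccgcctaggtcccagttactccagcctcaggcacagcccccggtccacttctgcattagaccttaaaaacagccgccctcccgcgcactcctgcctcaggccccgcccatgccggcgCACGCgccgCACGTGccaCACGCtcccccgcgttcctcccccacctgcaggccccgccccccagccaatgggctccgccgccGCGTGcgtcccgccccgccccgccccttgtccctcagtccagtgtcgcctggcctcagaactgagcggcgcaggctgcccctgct
There are 2 matches for Slc2a1, 7 for Ldha, 2 for Slc16a3 and 5 for Bnip3. A further promoter of Ldha, not printed, had 2 matches. In all, each of the 9 genes matched had at least 1 match in a promoter. Of all 32851 promoters, 43.8% had at least 1 match and 20.6% had 2 or more. These shares are per promoter, while the count of 9 is per gene, of up to 2 promoters, so the 2 cannot be compared directly. The motif was absent from 1 of the 2 promoters of Hk1, of Pkm and of Pdk1. The ERR motif AAGGTCA (ERR is the family of Esrrb) had 0 matches in the same 14 promoters. The AP-1 motif TGANTCA, where N is any base, also had 0. Of all promoters, 4.72% and 7.81% had at least 1, so an absence from 14 does not set these genes apart. The CACGTG counted as 2 above is also the E-box, present in 7.15% of all promoters. It occurred in the printed promoters of Ldha (2 times) and Bnip3 (1 time) and in a promoter of Pfkfb3 (1 time). A match describes these letters and no binding was measured.

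The first question the design poses is how the genes differ with the factor left out. Each leave-out arm was set against the mean of the other 3, day by day, in 1 fit over the 32 leave-out libraries and 18135 genes. Log2 fold changes are given with their standard errors (SE), and passing means a p under 0.05 after Benjamini-Hochberg adjustment in edgeR's quasi-likelihood test. Without Jdp2, 6 of the 10 genes were higher and 1 was lower, against 14.4% and 9.13% of all genes tested. Without Sall4, 1 was higher and 7 were lower, against 22.3% and 19.5% of all genes. The arm without Esrrb had 4 higher and 1 lower (20.9% and 21.9% of all genes), and the arm without Glis1 had 2 higher and 2 lower (20% and 16.3% of all genes). The shares in the arm without Glis1 are close to those of all genes. The median log2 fold change of the 10 genes was 0.73 without Jdp2 and -0.89 without Sall4, where the medians over all genes were 0.01 and 0.00. Since the 4 contrasts share their libraries, they are not independent of each other.

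**Figure D1:**
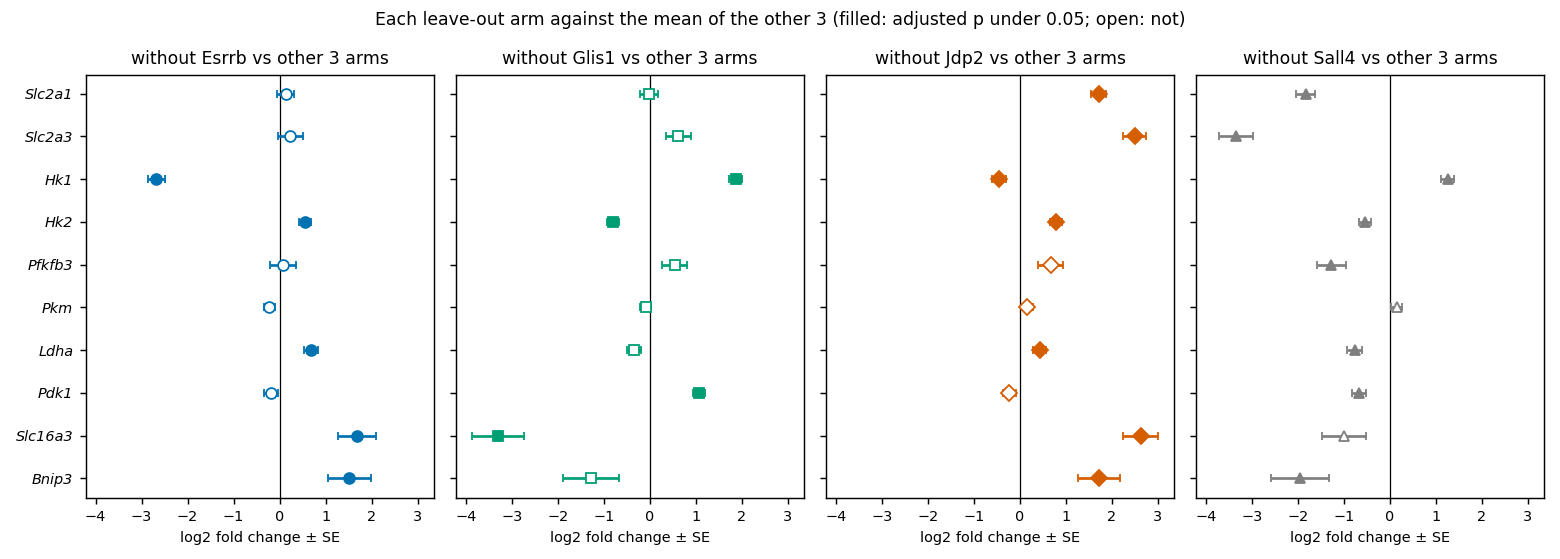
Log2 fold change (x axis, ± SE) of each gene (rows) in each leave-out arm against the mean of the other 3 arms, 8 libraries per arm; filled symbols passed at an adjusted p under 0.05. Slc2a1 and Slc2a3 lie right of 0 without Jdp2 (1.71 and 2.49) and left of 0 without Sall4 (-1.83 and -3.35), while Hk1 lies at -2.68 without Esrrb and at 1.87 without Glis1.

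Both glucose transporters were highest without Jdp2 and lowest without Sall4. Slc2a1 (chr4:119108711-119137983, mm10) ranged from 127 TPM to 427 TPM without Jdp2, with a median of 163. In the arm without Esrrb its lowest, median and highest values were 37.9, 69.3 and 204 TPM, without Glis1 48.1, 62.2 and 114 TPM, and without Sall4 18.7, 22.4 and 58.9 TPM. On each of the 8 days the arm without Jdp2 held the highest value of the 4 and the arm without Sall4 the lowest. The log2 fold change was 1.71 ± 0.17 (SE) without Jdp2 (adjusted p = 1.9e-08) and -1.83 ± 0.21 without Sall4 (adjusted p = 6.7e-08), from edgeR with 8 libraries per arm. The middle pair, the arms without Esrrb and without Glis1, differed by 0.11 ± 0.23, which did not pass (adjusted p = 0.74, edgeR), and the other steps in that order passed.

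Slc2a3 (chr6:122727809-122801640) also differed widely between the arms. It stayed between 2.4 and 4.87 TPM on all 8 days without Sall4, from 11 to 35 counts per library. Without Jdp2 it ran from 8.46 TPM on day 0 to 329 TPM on day 7, with a median of 69.0. The arms without Esrrb and without Glis1 reached 53.6 and 48.4 TPM on day 7 from 2.68 and 7.88 TPM on day 0. The arm without Sall4 was thus the lowest on 8 of 8 days and lay wholly below the range of the arm without Jdp2. The log2 fold change was 2.49 ± 0.25 without Jdp2 (adjusted p = 2.1e-08) and -3.35 ± 0.37 without Sall4 (adjusted p = 2.6e-08, edgeR). The estimated counts of Slc2a3 were not whole in 5 of 35 libraries, so a few of its reads were divided between similar sequences.

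The insulin-regulated transporter Slc2a4 (GLUT4), a relative of both, behaved differently from them. It stood at 31.7 to 122 TPM without Glis1 (median 85.1) and at no more than 7.78 TPM in any library of the other 4 groups, a log2 fold change of 5.96 ± 0.25 (adjusted p = 6.9e-17, edgeR). Its level in the JEGS libraries was 4.41 to 6.06 TPM. In the arm without Glis1 the log2 fold change of Slc2a1 was -0.01 ± 0.19 and that of Slc2a3 was 0.62 ± 0.28, neither of which passed.

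The 2 hexokinases moved in opposite directions. Hk1 (chr10:62268855-62379908), the form of most tissues, had lowest, median and highest values of 10.8, 16.7 and 24.8 TPM without Esrrb. Without Jdp2 these were 41.7, 50.0 and 70.1 TPM, without Sall4 88.0, 108 and 154 TPM, and without Glis1 85.4, 165 and 187 TPM. The arm without Esrrb overlapped no other arm, and its highest library lay below the lowest library of each. Hk1 was lower without Esrrb by a log2 fold change of -2.68 ± 0.18 (adjusted p = 3.8e-12) and higher without Glis1 (1.87 ± 0.14, adjusted p = 7.1e-12) and without Sall4 (1.25 ± 0.14, adjusted p = 2.4e-08, edgeR). All 3 steps in the order of the arms passed, but that from the arm without Glis1 to the arm without Sall4 (0.46 ± 0.18, adjusted p = 0.045, edgeR) lost its call in 27 of 40 fits that left out 1 library or day. The lower value without Jdp2 (-0.44 ± 0.15, adjusted p = 0.031) lost its call in 6 of those 40 fits.

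Hk2 (chr6:82725025-82774454), the inducible hexokinase of growing cells, had its medians in the reverse order, of which only the middle step, from the arm without Jdp2 to that without Sall4, passed (0.99 ± 0.16, adjusted p = 1.4e-05, edgeR). The fitted difference of the arm without Esrrb from that without Jdp2 was -0.17 ± 0.15, against the order of their medians. Its lowest, median and highest levels were 19.9, 34.7 and 44.0 TPM without Esrrb and 20.4, 33.3 and 79.7 TPM without Jdp2. They were 12.1, 18.4 and 26.4 TPM without Sall4 and 9.65, 14.95 and 21.9 TPM without Glis1. The ranges of neighbouring arms overlapped. Hk2 was higher without Esrrb (0.56 ± 0.12, adjusted p = 0.00062) and without Jdp2 (0.78 ± 0.12, adjusted p = 2.1e-05). It was lower without Glis1 (-0.80 ± 0.13, adjusted p = 2.5e-05) and without Sall4 (-0.54 ± 0.13, adjusted p = 0.0015, edgeR). The ratio of Hk2 to Hk1 in TPM, which is a level per transcript length, was over 1 in 6 of 8 libraries without Esrrb and in 1 of 8 without Jdp2. It was at most 0.122 without Glis1 and 0.231 without Sall4.

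**Figure D2:**
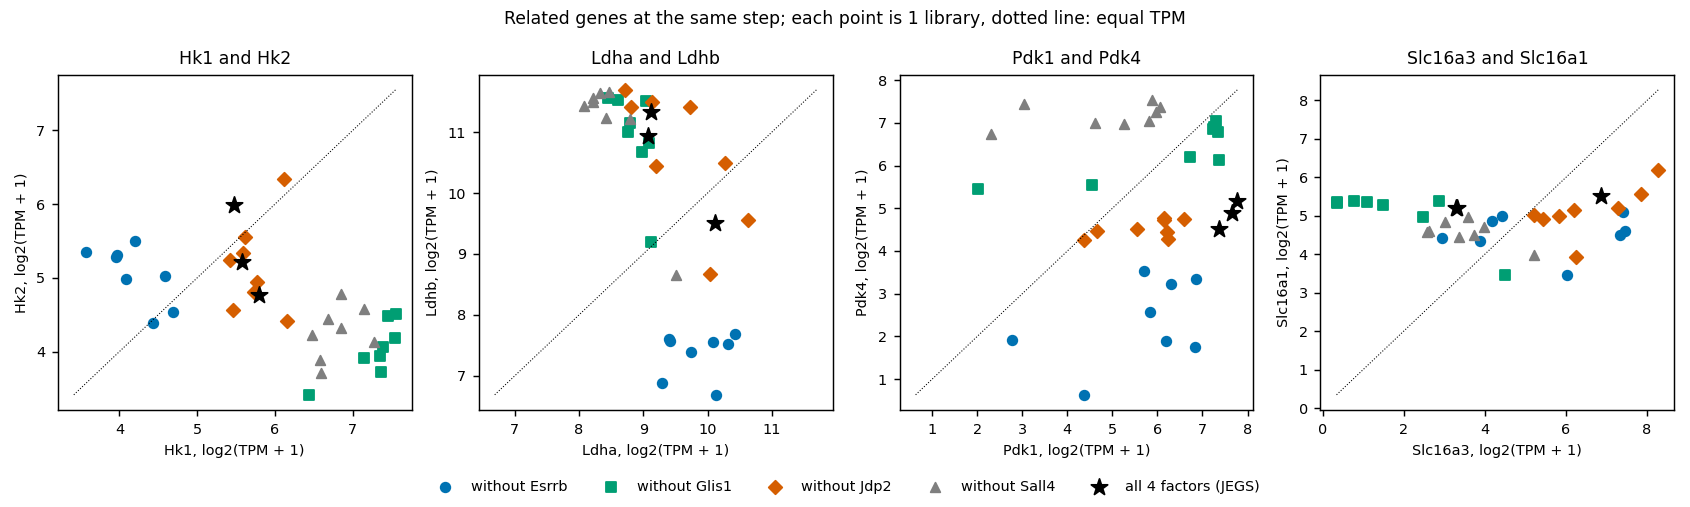
Levels of a gene and a relative at the same step on log2(TPM + 1) axes, 1 point per library (8 per leave-out arm, 3 for JEGS), with the dotted line at equal TPM. The 8 libraries without Esrrb stand apart at 102 to 206 TPM of Ldhb, below every library of the other 4 groups, and hold the lowest Hk1 (10.8 to 24.8 TPM).

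Pfkfb3 (chr2:11471433-11554077) was lowest without Sall4, at 3.17 to 14.6 TPM with a median of 6.89. Its ranges were 6.83 to 76.0 TPM without Esrrb, 8.93 to 31.6 TPM without Glis1 and 12.5 to 56.8 TPM without Jdp2, so that all 4 ranges overlapped. Only the lower level without Sall4 passed (-1.28 ± 0.31, adjusted p = 0.0015, edgeR). On days 3 to 7 alone the value was -2.18. Among the other 3 arms, neither neighbouring pair differed beyond its spread (adjusted p = 0.85 and 0.44).

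Pkm (chr9:59656368-59679375) was the most abundant of the 10, and its fitted differences from the other 3 arms spanned the least. Its lowest, median and highest levels were 885, 1420 and 2146 TPM without Esrrb, 1213, 1364 and 1640 TPM without Glis1, 1346, 1641 and 2408 TPM without Jdp2, and 1371, 1473 and 2015 TPM without Sall4. No contrast between the leave-out arms passed for Pkm, and its log2 fold changes against the other 3 arms lay between -0.22 and 0.16. Its counts were not whole in 35 of 35 libraries; where the estimator divides reads between similar sequences, a level is uncertain.

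Ldha (chr7:46841475-46855627) was highest without Esrrb on 7 of 8 days. Its lowest, median and highest levels were 623, 971 and 1372 TPM without Esrrb and 418, 713 and 1576 TPM without Jdp2. They were 349, 471 and 557 TPM without Glis1 and 270, 330 and 729 TPM without Sall4. The arm without Esrrb lay above the whole range of the arm without Glis1. Ldha was higher without Esrrb (0.68 ± 0.14, adjusted p = 0.00029) and lower without Sall4 (-0.77 ± 0.16, adjusted p = 0.00022, edgeR). The higher level without Jdp2 (0.43 ± 0.15, adjusted p = 0.031) lost its call in 8 of 40 fits that left out 1 library or day.

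Its sister gene Ldhb, which encodes the H subunit typical of tissues that oxidize lactate, differed far more. Ldhb stood at 102 to 206 TPM without Esrrb and had medians of 2149, 2087 and 2818 TPM without Glis1, Jdp2 and Sall4. The log2 fold change without Esrrb was -3.70 ± 0.24 (adjusted p = 2.3e-12, edgeR). The ratio of Ldha to Ldhb was 3.5 to 11.0 in the 8 libraries without Esrrb. It was over 1 in 0 of 8 libraries without Glis1, 2 of 8 without Jdp2 and 1 of 8 without Sall4.

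Pdk1 (chr2:71873224-71903858) was highest without Glis1 on 7 of 8 days. Its lowest, median and highest values were 3.06, 151 and 163 TPM without Glis1, 5.84, 63.7 and 116 TPM without Esrrb, 19.6, 69.7 and 95.2 TPM without Jdp2, and 3.98, 46.5 and 65.1 TPM without Sall4. Each arm started low, so the ranges overlap. Pdk1 was higher without Glis1 (1.07 ± 0.13, adjusted p = 2e-07) and lower without Sall4 (-0.67 ± 0.15, adjusted p = 0.0006, edgeR). In the order of medians, neither the step from the arm without Jdp2 to that without Esrrb nor the step from there to that without Sall4 passed (adjusted p = 0.93 and 0.097, edgeR). Pdk4, the starvation-induced form of the same kinase, stood at 0.55 to 10.5 TPM without Esrrb and at 106 to 185 TPM without Sall4. Its log2 fold changes were -4.40 ± 0.24 and 3.02 ± 0.16 (adjusted p = 8.3e-14 and 8.3e-15, edgeR). Pdk1 exceeded Pdk4 in 8 of 8 libraries without Esrrb, in 8 of 8 without Jdp2 and in 0 of 8 without Sall4.

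Slc16a3 (chr11:120948480-120960868), the lactate exporter, held the largest fitted difference between a pair of arms. Its lowest, median and highest levels were 36.1, 73.7 and 309 TPM without Jdp2, and 6.68, 42.5 and 175 TPM without Esrrb. They were 5.0, 10.1 and 36.0 TPM without Sall4 and 0.27, 1.48 and 21.6 TPM without Glis1, where the lowest library held 1 count. Every library without Jdp2 lay above every library without Glis1. Slc16a3 was higher without Jdp2 (2.63 ± 0.39, adjusted p = 8.7e-06) and without Esrrb (1.68 ± 0.41, adjusted p = 0.0015), and lower without Glis1 (-3.30 ± 0.57, adjusted p = 3e-05, edgeR). The day 0 library without Glis1 held the 21.6 TPM, and leaving it out moved the value to -4.15. Between the arms without Glis1 and without Jdp2 the log2 fold change was -4.45 ± 0.62 (adjusted p = 1.7e-06, edgeR). The other lactate transporter, Slc16a1 (MCT1), differed less, with medians of 22.6 to 39.7 TPM over the 4 arms. Slc16a3 exceeded Slc16a1 in 8 of 8 libraries without Jdp2, 4 of 8 without Esrrb, and 1 of 8 both without Glis1 and without Sall4.

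Bnip3 (chr7:138890836-138909519) had few counts in many libraries. Its lowest, median and highest levels were 0, 10.3 and 161 TPM without Esrrb and 2.36, 16.1 and 262 TPM without Jdp2. They were 1.14, 5.7 and 18.2 TPM without Glis1 and 2.35, 4.41 and 14.7 TPM without Sall4. All 4 ranges overlapped. The level of 0 on day 3 without Esrrb allows up to 1.82 CPM, the value of 3 counts at that depth, for counting error only. Bnip3 was higher without Jdp2 (1.72 ± 0.46, adjusted p = 0.0061) and without Esrrb (1.51 ± 0.47, adjusted p = 0.0097), and lower without Sall4 (-1.96 ± 0.62, adjusted p = 0.013, edgeR). Without the day 7 library, the arm without Jdp2 gave 1.09, which did not pass (adjusted p = 0.1, edgeR). Under limma on log2(TPM + 1), the arms without Esrrb and without Sall4 gave 0.69 and -1.17, which did not pass (adjusted p = 0.32 and 0.086). Bnip3 counts were not whole in 17 of 35 libraries.

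Between pairs of arms, the arms without Sall4 and without Esrrb differed in 8 of the 10 genes, against 47.0% of all genes. The arms without Jdp2 and without Sall4 also differed in 8 (35.2%), as did those without Glis1 and without Jdp2 (35.2%). The arms without Esrrb and without Glis1 differed in 6 (43.2%), those without Glis1 and without Sall4 in 6 (32.1%), and those without Esrrb and without Jdp2 in 3 (22.0%). The 3 genes of the last pair were Slc2a1, Slc2a3 and Hk1, all lower without Esrrb.

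**Figure D3:**
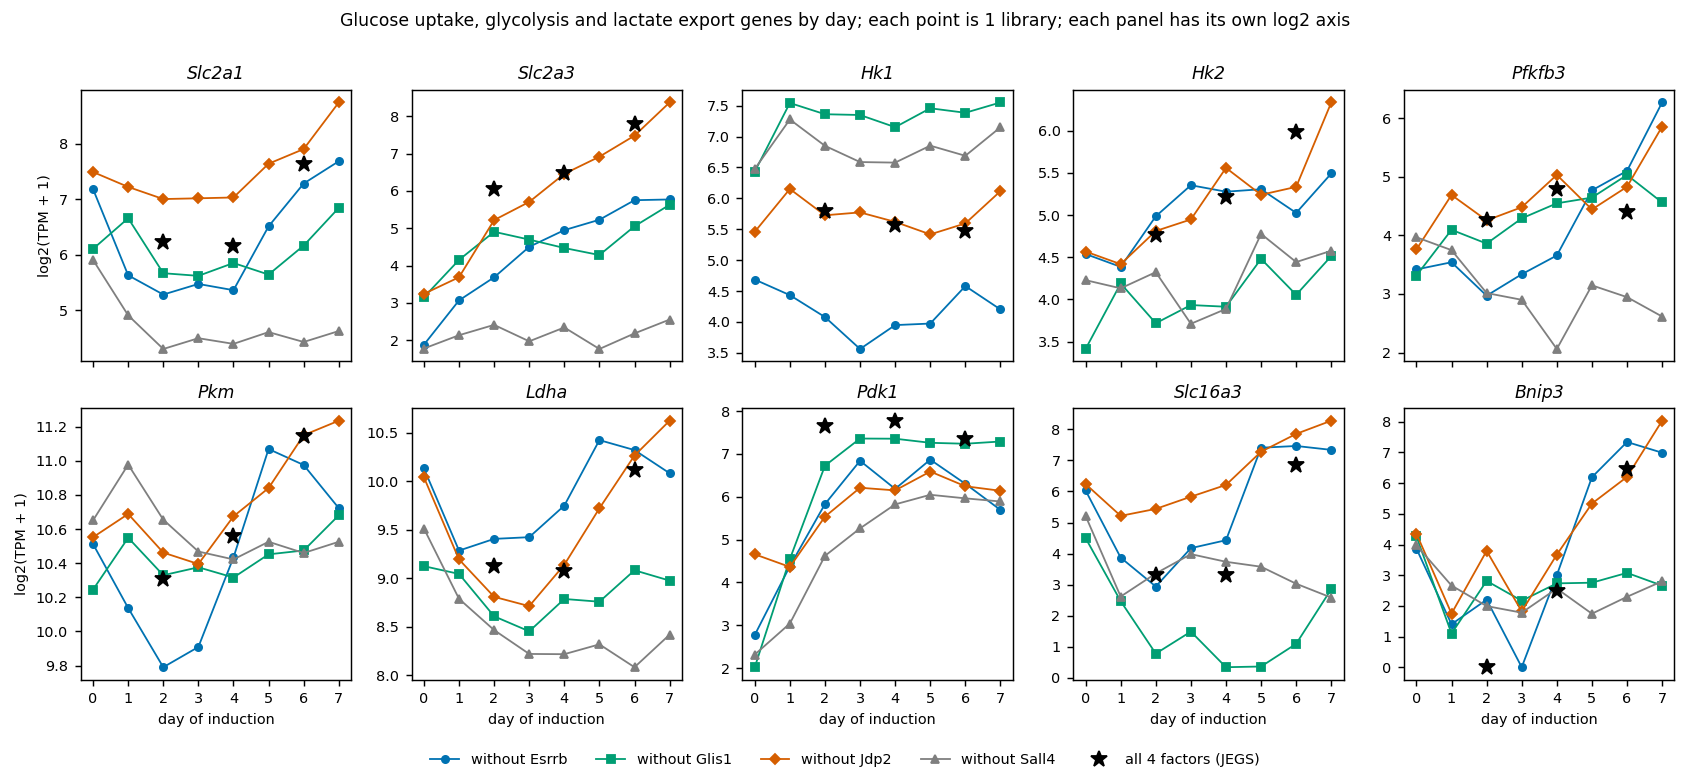
Level of each gene on its own log2(TPM + 1) axis (y) by day of induction (x); each point is 1 library, lines join the libraries of a leave-out arm and stars are the 3 JEGS libraries. Without Esrrb, Slc16a3 and Bnip3 climb after day 4 (to 175 and 161 TPM). Without Jdp2, Bnip3 climbs after day 4 (to 262 TPM) and Slc16a3 rises on each day from day 1 to day 7 (to 309 TPM). Both stay at 14.8 TPM or less from day 1 on in the other leave-out arms.

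The second question is how the genes moved over the days. At day 0, Ldha, Slc16a3 and Bnip3 were higher than on each of days 1 to 4 in all 4 leave-out arms, which held for 5.54% of all genes. Slc16a3 stood at 64.4, 21.6, 74.4 and 36.0 TPM on day 0 without Esrrb, Glis1, Jdp2 and Sall4, and at 13.6, 4.54, 36.1 and 5.14 TPM on day 1. Bnip3 stood at 13.6, 18.2, 19.4 and 14.7 TPM on day 0 and at 1.64, 1.14, 2.36 and 5.33 TPM on day 1, in the same order of arms. Both genes were lower on day 1 in 4 of 4 arms.

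Pdk1 and Slc2a3 took another course and started at their lowest or near it. Pdk1 stood at 5.84, 3.06, 24.2 and 3.98 TPM on day 0 and at 113, 163, 73.0 and 37.4 TPM on day 3 without Esrrb, Glis1, Jdp2 and Sall4. Its level on day 3 was above that on day 0 in all 4 arms. Slc2a3 went up on each successive day in the arms without Esrrb and without Jdp2.

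From day 5, a set of the genes stood higher than on days 1 to 4 in the arms without Esrrb and without Jdp2, called a step here. Slc2a3 in both arms and Slc16a3 without Jdp2 rose on each day from day 1 to day 7. Such a steady rise also puts late days above early ones, so for these the comparison does not show a break at day 5. Days 5 to 7 lay above days 1 to 4 with no overlap for 7 of the 10 genes without Esrrb and 6 without Jdp2, against 5.81% and 9.05% of all genes. The same held for 1 gene without Glis1 (Pfkfb3) and 2 without Sall4 (Hk2 and Pdk1), against 5.77% and 7.41% of all genes. The 6 genes without Jdp2 were Slc2a1, Slc2a3, Pkm, Ldha, Slc16a3 and Bnip3, and the arm without Esrrb had these and Pfkfb3. The split at day 5 was chosen after the values had been seen, so the tests that follow describe a pattern already noticed. Their p-values measure the scatter between days within arms, not between replicate cultures.

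**Figure D4:**
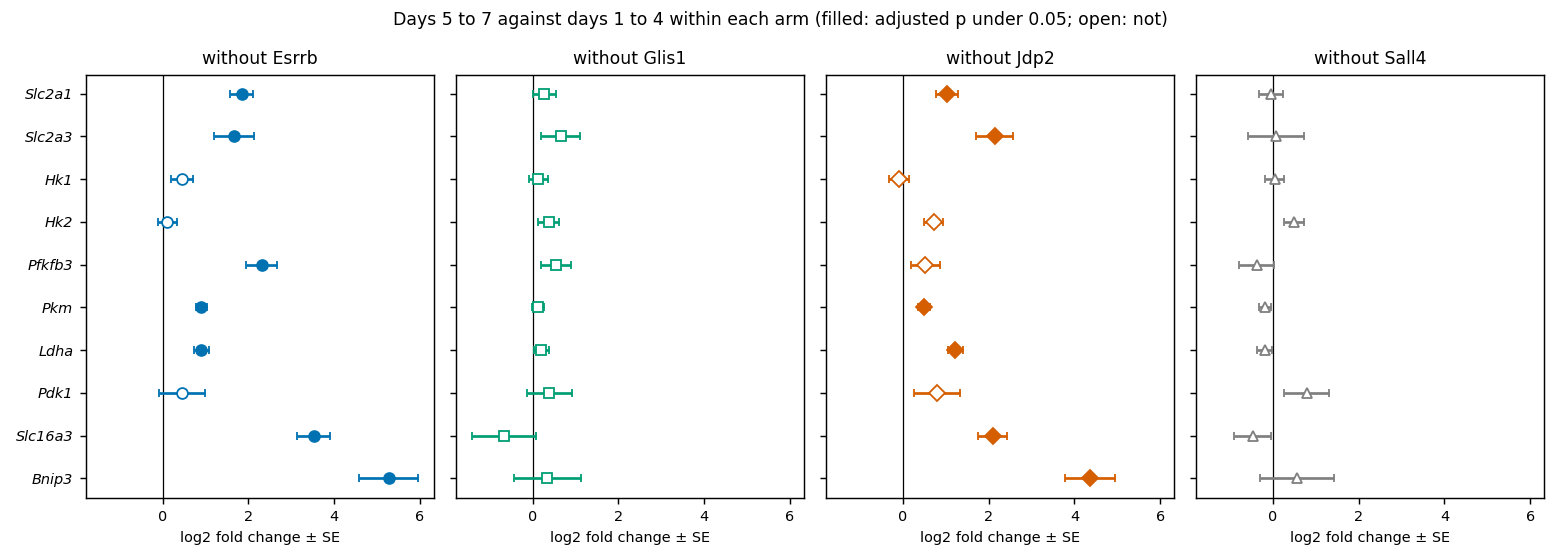
Log2 fold change (x axis, ± SE) of days 5 to 7 (3 libraries) against days 1 to 4 (4 libraries) within each leave-out arm for each gene (rows); filled symbols passed at an adjusted p under 0.05. In the arms without Esrrb and without Jdp2, 7 and 6 genes lie to the right of 0 and passed, with Bnip3 at 5.27 and 4.37, and all symbols are open without Glis1 and without Sall4.

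With day 0 given a term of its own, edgeR's test of days 5 to 7 against days 1 to 4 passed for the same 7 genes without Esrrb and the same 6 without Jdp2, all higher. Of all genes, 5.33% and 2.39% were higher in that test. None of the 10 passed without Glis1 or without Sall4, where 0.265% and 0.0165% of all genes were higher and 0 and 1 of the 10 had an unadjusted p under 0.05. The median log2 fold change of the 10 genes was 1.29 without Esrrb, 0.92 without Jdp2, 0.31 without Glis1 and -0.01 without Sall4, and the medians over all genes lay between 0.00 and 0.02. The size of the step differed between arms for 6 genes (Slc2a1, Pfkfb3, Pkm, Ldha, Slc16a3 and Bnip3), as it did for 5.08% of all genes. Without day 6, that difference passed for Slc16a3 only, and in all 35 fits that left out 1 library or day it passed for 1 to 7 genes.

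Slc16a3 showed the step most sharply without Esrrb. Its levels were 13.6, 6.68, 17.1 and 20.6 TPM on days 1 to 4 and 169, 175 and 161 TPM on days 5 to 7. Without Jdp2 they were 36.1, 42.4, 55.9 and 73.0 TPM, then 154, 230 and 309 TPM. In both arms the lowest late library was above 2 times the highest early one. The log2 fold change was 3.52 ± 0.38 without Esrrb (adjusted p = 6.1e-06) and 2.10 ± 0.34 without Jdp2 (adjusted p = 0.00056, edgeR). Without Glis1 it was -0.67 ± 0.75 and without Sall4 -0.47 ± 0.44, and the difference between arms passed (adjusted p = 0.00056, edgeR). Each of these 3 calls held in 35 of 35 fits that left out 1 library or 1 day.

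Bnip3 had the largest step, from early levels near the floor. Its libraries of days 1 to 4 held 0 to 9 counts without Esrrb and 3 to 26.2 counts without Jdp2. The difference between arms (adjusted p = 0.007, edgeR) lost its call without day 2 or day 6. Its levels without Esrrb were 1.64, 3.6, 0 and 7.01 TPM on days 1 to 4 and 72.2, 161 and 126 TPM on days 5 to 7. Without Jdp2 they were 2.36, 12.9, 2.53 and 11.7 TPM, then 39.4, 72.7 and 262 TPM. In the arm without Glis1 it stayed at 1.14 to 7.43 TPM from day 1 to day 7, and without Sall4 at 2.35 to 5.97 TPM, with early and late days overlapping. The log2 fold change was 5.27 ± 0.69 without Esrrb (adjusted p = 3.3e-05) and 4.37 ± 0.59 without Jdp2 (adjusted p = 0.00013, edgeR), and both calls held in 35 of 35 leave-out fits.

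Among the transporters, Slc2a1 without Esrrb stood at 37.9 to 48.5 TPM on days 1 to 4 and at 90.1, 155 and 204 TPM on days 5 to 7. Without Jdp2 it stood at 127 to 148 TPM and then at 198, 238 and 427 TPM. On day 0 Slc2a1 had stood at 144 TPM without Esrrb, above its day 5 level, and at 179 TPM without Jdp2. The log2 fold change was 1.85 ± 0.27 (adjusted p = 6.8e-05) and 1.04 ± 0.26 (adjusted p = 0.016, edgeR), and the second was lost in 6 of 35 fits that left out 1 library or day, being 0.61 without the day 7 library of that arm. Slc2a3 stood at 36.5, 52.8 and 53.6 TPM on days 5 to 7 without Esrrb and at 120, 177 and 329 TPM without Jdp2. Its log2 fold changes were 1.67 ± 0.47 (adjusted p = 0.02) and 2.14 ± 0.43 (adjusted p = 0.0045, edgeR). The first lost its call in 8 of 35 fits that left out 1 library or day, among them those without that arm's day 1, 2, 6 or 7 library, with an adjusted p of up to 0.13. The difference between arms did not pass for Slc2a3 (adjusted p = 0.21).

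Of the enzymes, Pfkfb3 without Esrrb stood at 6.83 to 11.6 TPM on days 1 to 4 and at 26.2, 33.3 and 76.0 TPM on days 5 to 7, a log2 fold change of 2.31 ± 0.37 (adjusted p = 0.00021, edgeR). Ldha stood at 623 to 859 TPM and then at 1372, 1277 and 1082 TPM without Esrrb. Without Jdp2 it stood at 418 to 584 TPM and then at 842, 1228 and 1576 TPM. Its day 0 levels were 1120 TPM without Esrrb, above day 7, and 1051 TPM without Jdp2, above day 5. Its log2 fold changes were 0.90 ± 0.17 (adjusted p = 0.0011) and 1.23 ± 0.17 (adjusted p = 0.00024, edgeR). Pkm had log2 fold changes of 0.91 ± 0.14 and 0.49 ± 0.14 (adjusted p = 0.0001 and 0.032, edgeR), with day 0 levels of 1459 and 1500 TPM. Hk1, Hk2 and Pdk1 did not pass in either arm, nor did Pfkfb3 without Jdp2 (0.53 ± 0.34, adjusted p = 0.41). Leaving out the day 7 library of the arm without Jdp2 removed the calls of Slc2a1, Slc2a3 and Pkm there, so that 3 of 10 genes passed. In the arm without Esrrb, 6 to 8 genes passed in the leave-out fits.

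The rest of the glycolytic pathway was taken from lists. Of 12 other glycolytic enzymes, 10 rose on days 5 to 7 without Esrrb and 5 without Jdp2, against 5.33% and 2.39% of all genes. None passed without Glis1 or without Sall4, where 1 and 5 had an unadjusted p under 0.05 in edgeR. Only 0.265% and 0.0165% of all genes were higher in those 2 arms, so an absence of calls there is near the share of all genes. Their median log2 fold changes were 1.25, 0.63, 0.04 and -0.21 in the arms without Esrrb, Jdp2, Glis1 and Sall4. Pfkl, a phosphofructokinase, rose by 2.30 ± 0.26 without Esrrb and 2.16 ± 0.25 without Jdp2 (adjusted p = 6.1e-06 and 2.1e-05, edgeR). Tpi1, triosephosphate isomerase, rose by 1.44 ± 0.16 and 1.01 ± 0.16 (adjusted p = 6.1e-06 and 0.00048), Pgk1, phosphoglycerate kinase, by 1.74 ± 0.21 and 0.98 ± 0.21, and Gpi1, glucose phosphate isomerase, by 1.25 ± 0.17 and 0.69 ± 0.17. Bsg, the chaperone that brings lactate transporters to the membrane, rose by 0.50 ± 0.13 and 0.56 ± 0.13 (adjusted p = 0.011 and 0.012, edgeR).

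Of 24 other hypoxia-responsive genes, 12 rose and 1 fell on days 5 to 7 without Esrrb, and 15 rose without Jdp2. Of all 18135 genes, 5.33% and 2.39% were higher in these 2 arms, and 1172 and 492 genes were lower. Among the 24, 5 are also among the glycolytic enzymes. None of the 24 passed without Glis1 or without Sall4, where 3 and 3 had an unadjusted p under 0.05 in edgeR. Of all genes, 0.265% and 0.0165% were higher there. Ak4, a mitochondrial adenylate kinase, rose by 2.71 ± 0.37 without Esrrb and 4.00 ± 0.39 without Jdp2 (adjusted p = 4.2e-05 and 9.9e-07, edgeR). Bnip3l, the close relative of Bnip3, rose by 1.01 ± 0.17 and 0.70 ± 0.16. Among 9 HIF pathway regulators, Hif3a and Arnt rose and Hif1a fell (-0.82 ± 0.15, adjusted p = 0.00061) without Esrrb, and 4 rose without Jdp2, led by Hif3a and Epas1.

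Markers of other cell states moved in part with the step. The summed level of 7 endothelial markers was 17.9 to 66.9 TPM on days 1 to 4 and 87.4 to 151 TPM on days 5 to 7 without Esrrb, and 53.0 to 71.7 and 87.9 to 135 TPM without Jdp2. In the arms without Glis1 and without Sall4 it was at most 24.3 and 21.2 TPM on days 5 to 7. Of these markers, 3 rose without Esrrb and 4 without Jdp2, against 5.33% and 2.39% of all genes. None was at 0 throughout an arm. The summed level of 10 pluripotency markers was 27.8 to 85.7 TPM and then 146 to 445 TPM without Jdp2, where 8 rose, and 29.6 to 93.9 TPM and then 41.8 to 76.1 TPM without Esrrb. None of them passed without Esrrb, and 0 had an unadjusted p under 0.05 (edgeR's quasi-likelihood test). In the arms without Glis1 and without Sall4, 2 of the 10 were at 0 in every library. The median log2 fold change of the list was 1.51 without Glis1 and 0.07 without Sall4. None passed in either arm, where 2 and 0 had an unadjusted p under 0.05 (edgeR). Of the 10 epithelial markers, 4 fell without Esrrb, where 1172 of all 18135 genes fell. Without Jdp2, 2 of them rose, against 2.39% of all genes. Without Glis1 none of the 10 passed, with a median log2 fold change of 1.39 and 6 at an unadjusted p under 0.05 (edgeR). Their summed level there was 139 to 250 TPM on days 1 to 4 and 272 to 398 TPM on days 5 to 7. The part of any of these cell states in the step was not tested.

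Levels of proliferation markers also differed between the arms. The summed level of 10 cell cycle markers had a median of 994 TPM without Esrrb, 791 without Jdp2, 253 without Glis1 and 160 without Sall4. All 10 were higher without Esrrb and without Jdp2, against 20.9% and 14.4% of all genes. All 10 were lower without Sall4 and 6 without Glis1, against 19.5% and 16.3% of all genes. Of the 10 genes, only Ldha had medians in this order. Hk2 had it except for the last pair. Slc2a1, Slc2a3 and Bnip3 had it except for the first pair, where the arm without Jdp2 stood above that without Esrrb. Across the step at day 5, none of the 10 markers passed without Esrrb or without Jdp2, where 3 and 3 had an unadjusted p under 0.05 (edgeR). Their summed level without Jdp2 was 547 to 767 TPM on days 1 to 4 and 816 to 1034 TPM on days 5 to 7, and without Esrrb 797 to 1195 TPM and 843 to 1304 TPM. Their part in the differences between arms was not tested.

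A linear slope over days 0 to 7 was fitted in each arm. Its p-values likewise rest on the scatter of single days around the line. Slopes passed, all upward, for 4 genes without Esrrb, 2 without Glis1, 4 without Jdp2 and 1 without Sall4, against 8.71%, 3.86%, 5.19% and 3.73% of all genes with upward slopes and 10.5%, 4.01%, 4.49% and 5.57% with downward ones. Slc2a3 rose by 0.60 ± 0.07 log2 units per day without Esrrb (adjusted p = 1.6e-06), 0.32 ± 0.07 without Glis1 (adjusted p = 0.0027) and 0.79 ± 0.07 without Jdp2 (adjusted p = 4.5e-08, edgeR). Without Sall4 its slope was 0.06 ± 0.08, which did not pass (adjusted p = 0.7). Slc2a1, Pkm and Ldha had no slope that passed in any arm (adjusted p from 0.11 to 0.94, edgeR). The slopes differed between arms for 4 of the 10 genes, against 8.96% of all genes: Slc2a3 (adjusted p = 0.00024), Pfkfb3 (0.0005), Slc16a3 (0.011) and Bnip3 (0.048, edgeR). Without the day 0 library of the arm without Esrrb, its slopes of Slc16a3 and Bnip3 changed from 0.35 and 0.67 to 0.79 and 1.41. The Slc16a3 slope (adjusted p = 0.047) nevertheless lost its call in 19 of 40 fits that left out 1 library or day, and the slope of Pdk1 without Sall4 (0.50 ± 0.16, adjusted p = 0.042, edgeR) lost it in 10.

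The full set of factors was compared with the leave-out arms on days 2, 4 and 6, in 15 libraries. The deposited names of the JEGS data carry a second-repeat mark. A difference between repeats therefore cannot be told apart from the set of factors in any JEGS comparison. Over the mean of the 4 arms, 3 of the 10 genes were higher in JEGS (Slc2a3, Hk2 and Pdk1) and none passed as lower, against 3.21% and 0.849% of all 16603 genes; 0 were lower at an unadjusted p under 0.05 (edgeR). Slc2a3 stood at 65.6, 88.9 and 222 TPM in JEGS, above all 4 arms on each of the 3 days, with a log2 fold change of 2.45 ± 0.24 (adjusted p = 2.3e-05). Pdk1 stood at 201, 218 and 163 TPM, again above every arm on each day, with 1.39 ± 0.17 (adjusted p = 0.00032, edgeR), and without day 4 it did not pass (adjusted p = 0.066). Hk2 stood at 26.3, 36.2 and 62.3 TPM, with 0.72 ± 0.15 (adjusted p = 0.015), and it lost its call in 4 of 6 fits that left out a JEGS library or a day. Hk1 stood at 54.3, 46.6 and 43.6 TPM and Slc2a1 at 74.4, 70.6 and 198 TPM, and neither passed.

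Against single arms, JEGS differed in 3 genes from the arm without Esrrb (6.63% of all genes), 4 from that without Glis1 (19.9%), 1 from that without Jdp2 (2.82%) and 7 from that without Sall4 (23.8%). The 1 gene against the arm without Jdp2 was Pdk1, with a log2 fold change of 1.66 ± 0.24 (adjusted p = 0.0016, edgeR). Without day 4 that call was lost (adjusted p = 0.19), as were all 3 calls against the arm without Esrrb (adjusted p = 0.084 to 0.11) and that of Slc2a3 against the arm without Glis1 (0.06). For the other 9 genes the log2 differences from the arm without Jdp2 ran from -1.59 to 0.50 with SEs up to 0.72, and none of these passed. The largest differences from the arm without Sall4 and from that without Glis1 were in Slc2a3 (5.26 ± 0.42, adjusted p = 2e-06) and Slc16a3 (5.17 ± 0.998, adjusted p = 0.0018, edgeR). Without day 6 the latter was 3.58.

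In JEGS the day 6 library held the highest level of the 3 days for 6 of the 7 genes that stepped up without Esrrb. Pfkfb3 was the exception, at 18.2, 26.8 and 20.1 TPM on days 2, 4 and 6. The 7 genes were picked for late levels in another arm, and the share of all genes highest on day 6 was not counted. Slc16a3 was at 8.82, 8.99 and 115 TPM and Bnip3 at 0, 4.62 and 87.8 TPM on days 2, 4 and 6. Ldha was at 558, 540 and 1110 TPM and Pkm at 1264, 1510 and 2262 TPM. With 1 library a day there is no test of this change, and the level of 0 on day 2 allows Bnip3 up to 2.37 CPM, for counting error only. In the same library the pluripotency markers summed to 1769 TPM, against 137 to 321 TPM on the earlier days, and the cell cycle markers to 1230 TPM, against 541 to 672 TPM; their part in the change was not tested.

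The genes that feed pyruvate into mitochondria were counted in the same contrasts. Of 11 such genes, 9 were lower and 1 higher without Esrrb, against 21.9% and 20.9% of all genes. Without Jdp2, 5 were lower (9.13% of all genes), and without Glis1, 8 were higher (20%). Without Sall4, 9 were higher and 1 lower (22.3% and 19.5%). Mpc1, a subunit of the mitochondrial pyruvate carrier, stood at 25.4 to 63.6 TPM without Esrrb (median 34.1) and had medians of 145 TPM without Glis1 and 166 TPM without Sall4. Its log2 fold change was -1.62 ± 0.24 without Esrrb (adjusted p = 2.9e-06) and 1.42 ± 0.19 without Sall4 (adjusted p = 7.9e-07, edgeR). Dlat and Dld, subunits of pyruvate dehydrogenase, were lower without Esrrb by -0.59 ± 0.08 and -0.68 ± 0.09 (adjusted p = 6.8e-07 and 4.2e-07, edgeR).

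Over the 32 leave-out libraries the 10 genes varied together only in part. Of the 45 pairs, 35 had a positive and 10 a negative Pearson correlation of log2(TPM + 1), with a median of 0.51 and 7 pairs over 0.7. The libraries share arms and days, so these values are descriptions. Among 10340 genes at a mean of 5 TPM or more, the profiles most like Bnip3 were those of Tpi1 (r = 0.86) and Pgk1 (0.85), and Tpi1 was also second for Slc16a3 (0.89) after Galk1 (0.89). Pkm was closest to Pgk1 (0.77), Tpi1 (0.72) and Aldoa (0.71). Slc2a3 was closest to Tmprss2 (0.90), Dsg2 (0.88) and Epcam (0.87), and the last of these is an epithelial adhesion protein. The profile nearest to Hk1 was Psca (0.95), followed by Mfge8 (0.93), and the nearest to Ldha was Mif (0.92). Slc2a1 was closest to Msx2 (0.88), Hk2 to Fem1b (0.85), Pdk1 to Lhpp (0.89), and Pfkfb3 to Zfp217 (0.80), with Slc2a1 among its nearest 3 (0.79).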

How the data were processed

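RNA of 35 libraries was analysed from the deposited gene tables, 1 per library. Per the file headers, each table holds the authors' expected counts, TPM and FPKM per gene. The submitters' processing notes name bcl2fastq, Bowtie2, RSEM and mm10, with versions not given in the sources used here. RSEM divides reads between similar genes, so expected counts need not be whole, and they were rounded. The deposited TPM values, which are relative to each library's total and to transcript length, are printed as levels. The authors' FPKM values were not used.

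Groups were taken from the sample names. Identifiers were matched to symbols for 54723 of 54752 genes, and of genes sharing a symbol the one of higher count was used. The counts were fitted with edgeR 4.0.16 in R 4.3.3 (TMM scaling, quasi-likelihood F tests, genes at 1 CPM or more in 3 or more libraries, Benjamini-Hochberg adjustment over all genes of a contrast, threshold 0.05). The leave-out fit had terms for arm and day over 32 libraries, the slope fit had an intercept and a slope per arm, and the JEGS fit had arm and day over 15 libraries. The labels name 2 library kits without assigning them to samples, so kit was not fitted. Alternatives used DESeq2 1.42.0, limma 3.58.1 on log2(TPM + 1) and log2(TPM + 0.1), other filters, other day terms and left-out libraries. The fits were tested on simulated data.

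The 10 genes and all gene lists were chosen with earlier results of these data known, and the comparison of days 5 to 7 with days 1 to 4 was added after the values had been seen. Genes named beside the 10 are the 3 with the highest correlation to each of them among genes at a mean of 5 TPM or more (predicted genes and the delivered factors left out), up to 4 genes per list with the smallest adjusted p, and isozymes of the 10. The lists were other glycolytic enzymes, isozymes and relatives, pyruvate entry, HIF regulators, hypoxia-responsive genes, the pentose phosphate pathway, the cell cycle, and markers of fibroblasts, epithelium, pluripotency, primitive endoderm, endothelium, macrophages and red blood cells. Intervals for 0 counts use 3 counts and cover counting error only. Figures were drawn with matplotlib 3.10.9 under Python 3.11.15.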

Additional observations from a re-analysis of the deposited data

Results flagged for a closer look

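In 4 of the 40 gene and arm groups of 8 libraries, the highest or lowest library stood apart by Dixon's gap test. Chance gives about 1 in 20 for libraries drawn alike. Successive days of an arm are not drawn alike, so the count cannot be set against that rate. Slc2a1 was at 58.9 TPM on day 0 without Sall4, with the other 7 days at 18.7 to 29.0 TPM. Hk1 was at 85.4 TPM on day 0 without Glis1, with the other days at 141 to 187 TPM. Pkm was at 2015 TPM on day 1 without Sall4, with the other days at 1371 to 1611 TPM. Bnip3 was at 14.7 TPM on day 0 without Sall4, with the other days at 2.35 to 5.97 TPM. In 3 of the 4 the library is that of day 0.

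The slopes over days 0 to 7 differed between the leave-out arms for 4 genes in edgeR's quasi-likelihood test of all arms. The adjusted p was 0.00024 for Slc2a3, 0.0005 for Pfkfb3, 0.011 for Slc16a3 and 0.048 for Bnip3, and the last was lost in 30 of 40 fits that left out 1 library or day.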

How the results depend on the processing

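No paired analysis was possible because the labels give no replicate numbers, and each arm has 1 library per day; the replicate numbers used here follow the day, which is a term of the leave-out and JEGS fits. No log2 fold change or slope that passed changed its direction under any alternative, and a change of sign between values that did not pass was not counted as one. Counts of the 10 genes that passed moved by over 1.5 times in these cases. Without a filter on low counts, 8 genes passed without Glis1 (4 in the analysis reported), 5 in JEGS against the mean of the 4 arms (3) and 3 in JEGS against the arm without Jdp2 (1), and 1 slope passed without Glis1 (2). With arm slopes added, 8 passed without Glis1. Without a day term, 3 passed between the arms without Glis1 and without Sall4 (6). Without Glis1, 4 slopes passed with DESeq2 and 5 with log2(day + 1). With limma on log2(TPM + 1) and on log2(TPM + 0.1), 2 and 2 slopes passed without Jdp2 (4), and 2 and 2 differed between arms (4). With days 5 to 7 against days 1 to 4 in place of a slope, 7 passed without Esrrb (4), 0 without Glis1 and 0 without Sall4 (1). The cause of these changes was not tested.

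Leaving out 1 library or day, the number passing ranged over 4 to 6 without Esrrb, 4 to 6 without Glis1, 5 to 9 without Jdp2 and 7 to 8 without Sall4, each against the other 3 arms. Between pairs it was 5 to 6 (Esrrb and Glis1), 3 to 3 (Esrrb and Jdp2), 7 to 9 (Esrrb and Sall4), 6 to 8 (Glis1 and Jdp2), 4 to 6 (Glis1 and Sall4) and 8 to 8 (Jdp2 and Sall4). For JEGS it was 1 to 3 against the mean, and 0 to 4, 3 to 5, 0 to 3 and 5 to 8 against the arms without Esrrb, Glis1, Jdp2 and Sall4. Slopes passed for 3 to 7, 0 to 4, 2 to 8 and 0 to 2 genes in those arms, and 2 to 7 slopes differed. Of the single calls, 52 of 63 between leave-out arms, 9 of 18 for JEGS and 6 of 15 for slopes held in every such fit. Slopes of Hk2 and Pfkfb3 without Jdp2 became 0.15 and 0.13 without that arm's day 7 library (adjusted p = 0.093 and 0.4, edgeR), and that of Slc2a3 without Glis1 became 0.21 without its day 0 library (adjusted p = 0.077). Depth limits Bnip3 and Slc16a3 most: 1 count is worth up to 0.79 CPM, and Slc16a3 had 1 to 66 counts without Glis1.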

Other observations

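The 7 pentose phosphate pathway genes, which branch from glucose 6-phosphate, showed no common direction between the arms. Without Jdp2, 3 were higher (G6pdx, Taldo1 and Pgd) and 1 lower. Without Esrrb, 1 was higher and 3 lower, without Glis1 2 were higher and 1 lower, and without Sall4 1 was higher and 2 lower, by edgeR's quasi-likelihood test with Benjamini-Hochberg adjustment. Of 19 isozymes and relatives tested, 4 were higher and 11 lower without Esrrb, 9 higher and 4 lower without Glis1, 5 higher and 5 lower without Jdp2, and 7 higher and 1 lower without Sall4. The lower ones without Esrrb were led by Pdk4, Ldhb, Slc16a7 and Pdk2. Of all genes, 20.9% were higher and 21.9% lower without Esrrb, and 20% and 16.3% without Glis1. Without Jdp2 these shares were 14.4% and 9.13%, and without Sall4 22.3% and 19.5%. Counts of 1 or 2 among 7 genes, and of 4 higher among 19 without Esrrb, lie near these shares.

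Markers of 3 further cell types were summed per library. The summed level of 7 macrophage markers was at most 56.9 TPM, of 6 red blood cell markers at most 133 TPM and of 9 primitive endoderm markers at most 323 TPM in any library. On days 5 to 7 without Jdp2, 5 of the 9 primitive endoderm markers rose (among them Gata4, Cubn, Sox7 and Dab2), against 2.39% of all genes. Without Esrrb 1 rose and 1 fell, where 5.33% of all genes rose and 1172 of 18135 fell.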
